A study of Mus musculus with 6 samples.

Results

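The granule genes of cytotoxic T cells were examined in CD8+ T cells from mouse spleen, from mice with and without floxed alleles of Slc2a10. The set holds 10 of the 35458 genes measured. It was chosen by function and comprises 5 granzymes (Gzma, Gzmb, Gzmc, Gzmk and Gzmm), the pore-forming protein perforin (Prf1), the granule proteins Nkg7 and Cst7, and the granzyme inhibitors Serpinb9 and Serpinb6b. RNA-seq was run on 3 libraries from mice of genotype Cd4cre, called control 1, 2 and 3 here, and on 3 libraries from mice of genotype Cd4creGlut10fl/fl, called KO 1, 2 and 3. Glut10 is the protein of Slc2a10, a hexose transporter, and fl/fl marks floxed alleles that Cre recombinase can remove. Both groups carry Cd4cre, which drives Cre from Cd4 regulatory sequence in developing T cells, so CD8+ cells are included and cells that never expressed Cre keep the gene. Age, sex, stimulation and the way CD8+ cells were collected are not given in the labels, and the title of the series also mentions lymphoma. Whether each library stands for its own mouse is not stated, so the p-values reflect the scatter of these libraries, part of which may be technical.

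Cytotoxic lymphocytes store granzymes, which are serine proteases, in secretory lysosomes together with perforin, and release both toward a target cell. Perforin opens the target membrane, and granzymes then enter and cleave proteins of the target, with granzyme B cleaving after aspartate and granzyme A and granzyme K after basic residues. Serpins in the cytosol of the killer cell inactivate granzyme that leaks from its own granules. Naive CD8+ cells hold little granzyme or perforin transcript, and activation by antigen and by cytokines such as IL-2 raises them.

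The granzymes are set side by side here because the make-up of the granzyme transcripts is described further on, and because similar genes can share reads. Each line gives 45 coding bases around the active-site serine, from the GENCODE M21 transcript, with the codon of that serine in capitals.
Gzma: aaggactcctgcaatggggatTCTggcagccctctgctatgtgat
Gzmb: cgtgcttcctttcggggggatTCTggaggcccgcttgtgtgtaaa
Gzmc: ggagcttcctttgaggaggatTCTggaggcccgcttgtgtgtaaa
Gzmk: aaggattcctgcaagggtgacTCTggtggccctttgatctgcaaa
Gzmm: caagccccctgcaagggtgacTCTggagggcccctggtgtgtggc
All 5 granzymes used the codon TCT for this serine. Gzmb and Gzmc were the closest pair, with 40 of these 45 bases identical and 76.2% identity over the aligned coding sequence. The other pairs shared 27 to 33 of the 45 bases and 50.2% to 55.5% of the coding sequence. Stretches of 50 bases that also occur in another gene made up 4.14% of the Gzmc transcript sequence, 2.92% of Serpinb6b and 0.378% of Serpinb9, and none were found in the other 7 genes. The partners were mainly Gzme for Gzmc, Serpinb6c for Serpinb6b and Serpinb9b for Serpinb9, and how the authors counted such reads is not given, so these 3 genes carry that uncertainty.

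Promoter sequence is shown for 4 genes that differed in their pattern across the libraries: Gzmb, which varied most, Prf1 and Nkg7, which were high in the same libraries, and Gzmk, which hardly varied. All 10 genes were found in the RefSeq promoter table (build GRCm38.p6). Each line gives the 250 bases before the annotated start, 5′ to 3′ on the gene's strand. Capitals mark matches, on either strand, to the core letters bound by RUNX factors (TGTGGT), T-box factors (GGTGTGA), AP-1 (TGANTCA) and STAT factors (TTCNNNGAA).
Gzmb, chr14:56262335-56262584 (minus strand): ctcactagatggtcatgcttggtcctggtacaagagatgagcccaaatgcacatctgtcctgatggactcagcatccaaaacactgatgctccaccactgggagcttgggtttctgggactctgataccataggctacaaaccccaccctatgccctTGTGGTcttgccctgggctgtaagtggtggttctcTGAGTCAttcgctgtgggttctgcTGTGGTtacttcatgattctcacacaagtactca
Prf1, chr10:61297586-61297835 (plus strand): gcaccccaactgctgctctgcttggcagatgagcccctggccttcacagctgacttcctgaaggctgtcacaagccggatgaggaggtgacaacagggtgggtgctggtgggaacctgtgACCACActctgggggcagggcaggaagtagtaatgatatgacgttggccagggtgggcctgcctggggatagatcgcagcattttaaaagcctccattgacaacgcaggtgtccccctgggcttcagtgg
Nkg7, chr7:43436888-43437137 (plus strand): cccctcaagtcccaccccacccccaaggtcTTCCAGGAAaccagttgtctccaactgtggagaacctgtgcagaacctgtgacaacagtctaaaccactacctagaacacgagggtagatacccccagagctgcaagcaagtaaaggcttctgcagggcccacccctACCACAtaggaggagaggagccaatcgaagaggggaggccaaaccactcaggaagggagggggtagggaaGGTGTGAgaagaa
Gzmk, chr13:113180966-113181215 (minus strand): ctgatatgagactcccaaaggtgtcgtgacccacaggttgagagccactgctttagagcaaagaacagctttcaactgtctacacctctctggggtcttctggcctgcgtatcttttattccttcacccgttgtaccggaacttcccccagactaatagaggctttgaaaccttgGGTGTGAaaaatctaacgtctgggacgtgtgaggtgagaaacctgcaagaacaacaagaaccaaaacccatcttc
The Gzmb window held RUNX letters 93 and 34 bases before the start and an AP-1 match at 58 bases. The Prf1 window held RUNX letters at 130 bases. In Nkg7 a STAT match lay at 220 bases, RUNX letters at 83 and T-box letters at 13. The Gzmk window held T-box letters at 75 bases and no match to the other 3. RUNX letters occurred in 7 of the 10 genes (all but Gzmk, Serpinb9 and Serpinb6b), where 14.0% of 32851 promoter windows of the same length hold them. T-box letters occurred in 2 of the 10 genes against 3.33% of windows, AP-1 letters in 1 against 6.75% and STAT letters in 2 against 7.02%. A second annotated start of Gzmm is not counted here. A match is a description of these letters, not of binding.

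The libraries differed in ways that touch the values below. Values are in FPKM, a fragment number corrected for gene length and library depth, and the totals they imply were 11840600 to 15036300 fragments in the controls, 14683400 in KO 2, and only 3420290 in KO 1 and 3004540 in KO 3. KO 1 and KO 3 also had reads spread over genes that T cells are not known to use: after thinning to 3316457 reads, 62.2% and 66.5% of 905 olfactory and vomeronasal receptor genes had a read, against 9.94% to 25.2% in the other 4 libraries. Transcripts of the 18 T cell markers summed to 2760 FPKM in control 1, 1040 in control 2, 767 in control 3, and 2780 to 4200 in the KO libraries. The 13 neutrophil markers summed to 16900 FPKM in control 2 and 29600 in control 3, against 445 in control 1 and 75.3 to 715 in the KO libraries. Slc2a10 itself, the targeted gene, had 4, 2 and 2 reads in control 1, 2 and 3 and 0 in each KO library, which is too few to check the labels by. In bulk RNA, fewer cells of a type and less RNA per cell cannot be told apart.

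None of the 10 granule genes passed the test for a difference between KO and control cells. Gzmc came closest, with every KO library above every control. All 10 passed the filter of at least 1 FPKM in at least 3 libraries. The estimate was higher in the KO group for 7 of them and lower for Gzma, Gzmb and Cst7. For all but Gzmc and Gzmm the direction turned in at least 1 setting. Scaling to the T cell markers, which lowers every gene alike, is not counted in this. In Gzmc and Gzmm every KO library lay above every control, so leaving out libraries could not turn the direction. Tested with limma on log2(FPKM + 1) over 13956 genes with Benjamini-Hochberg adjustment, 0 of the 10 passed an adjusted p of 0.05, where the share of all tested genes that passed was 0%. At an unadjusted p under 0.05, limma gave 1 of the 10 genes (Gzmc) and 1646 of all 13956, and limma-voom on the implied reads also called 0 genes after adjustment. The median log2 difference was 0.18 over the 10 genes (0.38 without control 1 and 0.11 without control 3) and 0.10 over all tested genes. Log2 differences are on the log2(FPKM + 1) scale throughout, KO minus control, which understates changes of low genes. An exact permutation test of 3 against 3 libraries cannot go below p = 0.1.

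**Figure D1:**
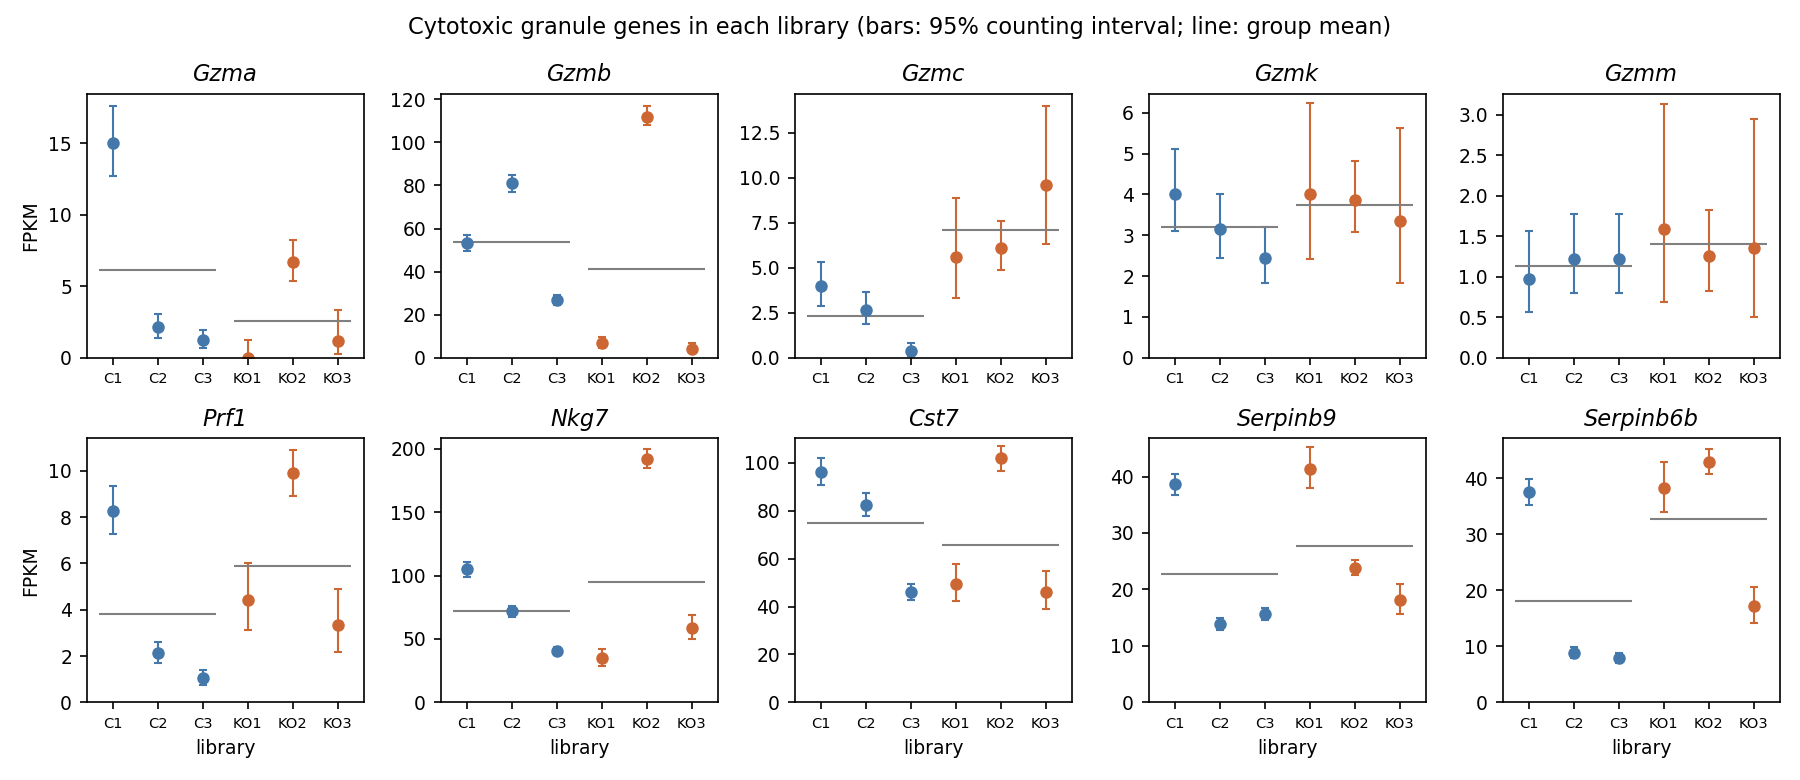
FPKM of the 10 granule genes in each library, with C1 to C3 for the controls and KO1 to KO3 for the KO libraries, 95% Poisson intervals of the implied reads as bars and the group mean as a grey line. Gzmb spans 4.22 to 112 FPKM within the KO group, Gzmk stays between 2.44 and 4.01 FPKM in all 6 libraries, and only Gzmc and Gzmm have no KO library below a control library.

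Gzmb, the granzyme that triggers apoptosis by cleaving caspases and Bid, was the most abundant granzyme in 5 of the 6 libraries, with Gzmc above it in KO 3, and it was the most variable gene of the set. It measured 53.2, 81.0 and 26.7 FPKM in control 1, 2 and 3 (894, 1725 and 570 implied reads) and 6.80, 112 and 4.22 FPKM in KO 1, 2 and 3 (33, 2336 and 18 reads). KO 1 and KO 3 lay below every control and KO 2 above every control, so the groups overlapped and the KO libraries stood on opposite sides. The highest KO library was 26.6-fold above the lowest, against 3.03-fold among the controls. The means were 53.7 ± 27.1 FPKM in control cells against 41.1 ± 61.6 FPKM in KO cells (SD, n = 3 each), and the log2 difference was -1.58 (SE 1.17, 95% interval -4.41 to 1.25, limma adjusted p = 0.512). The standard deviation of Gzmb within the groups, 1.79 on the log2 scale, was larger than that of 94.6% of tested genes. The result turned on KO 2. Without it the log2 difference was -2.96 with a limma adjusted p of 0.00986, the only call of a granule gene in any setting run. In that setting 0.96% of all tested genes were called lower, and the KO group is left with the 2 libraries of lowest total. It was -0.74 without KO 3. Without KO 1 and KO 3 the log2 difference was 1.19 (limma adjusted p = 0.831), a fit in which the lone KO library is assumed to vary like the controls. The level of Gzmb in KO 1 and KO 3 was reached or exceeded by 3.65% and 6.85% of the olfactory and vomeronasal genes of the same library. The part of these library differences in the Gzmb values was not tested.

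Gzma, the most abundant granzyme in many resting memory and natural killer cells and a tryptase that cleaves gasdermin B in human targets, was low and uneven. It measured 15.0, 2.12 and 1.21 FPKM in control 1, 2 and 3 (156, 28 and 16 reads) and 6.67 and 1.14 FPKM in KO 2 and KO 3 (86 and 3 reads). KO 1 had 0 reads, where 3 reads would be 0.999 FPKM. Control 1 alone was 12.4-fold above control 3, a wider gap than that between the group means. The log2 difference was -0.92 (SE 1.01, 95% interval -3.34 to 1.51, limma adjusted p = 0.653). It was -0.05 without control 1, -0.25 without KO 1 and -1.72 without KO 2. With KO 2 as the only KO library it was 0.68.

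Gzmc, a granzyme of the Gzmb gene cluster that is induced late in activated cytotoxic cells, had a higher estimate in the KO group in all 15 alternative settings. It measured 3.98, 2.64 and 0.356 FPKM in control 1, 2 and 3 (44, 37 and 5 reads) and 5.63, 6.12 and 9.62 FPKM in KO 1, 2 and 3 (18, 84 and 27 reads). Every KO library lay above every control, so leaving out libraries or changing the pseudocount could not turn the direction. Dropping the filter, the replicate block and protein-coding genes only left the estimate as it was. The 95% Poisson intervals of the reads in control 1 (2.89 to 5.34 FPKM) and KO 1 (3.34 to 8.91 FPKM) nevertheless overlapped, and these intervals cover counting error only. The means were 2.32 ± 1.83 FPKM in control cells against 7.13 ± 2.17 FPKM in KO cells (SD, n = 3 each). KO minus control gave a log2 difference of 1.45 (SE 0.54, 95% interval 0.15 to 2.75, limma adjusted p = 0.417), which did not pass the threshold. The lowest value with 1 library left out was 0.90, without control 3. Over the alternatives it ranged from 0.37 (scaled to the T cell markers) to 2.11 (limma-voom) with limma adjusted p between 0.139 and 0.997. In KO 1 and KO 3, 4.64% and 2.43% of the olfactory and vomeronasal genes were at or above the level of Gzmc, while in KO 2, where Gzmc measured 6.12 FPKM, the 90th percentile of those genes was 0.051 FPKM.

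Gzmk, a granzyme that marks memory-like rather than terminal effector CD8+ cells, was nearly flat. It measured 4.01, 3.16 and 2.44 FPKM in control 1, 2 and 3, against 4.0, 3.87 and 3.35 FPKM in KO 1, 2 and 3 (14 to 79 reads). The groups overlapped, and the log2 difference was 0.19 (SE 0.28, 95% interval -0.49 to 0.87, limma adjusted p = 0.754). It was 0.05 without control 3 and 0.32 without control 1. The standard deviation of Gzmk within groups, 0.21 on the log2(FPKM + 1) scale, was above that of only 10.2% of tested genes, on a scale that narrows the spread of low genes. In KO 1 and KO 3, 6.52% and 8.51% of the olfactory and vomeronasal genes were at or above the level of Gzmk.

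Gzmm, a granzyme found in natural killer and innate-like T cells, was the lowest of the 5 granzymes in control 1, control 2 and KO 2. It measured 0.975, 1.22 and 1.22 FPKM in control 1, 2 and 3 (17, 27 and 27 reads) and 1.59, 1.25 and 1.36 FPKM in KO 1, 2 and 3 (8, 27 and 6 reads). The KO values all lay just above the controls, but the counting intervals overlapped in every pair, from 0.568 to 1.56 FPKM in control 1 and from 0.686 to 3.13 FPKM in KO 1. The log2 difference was 0.16 (SE 0.25, limma adjusted p = 0.758), and 0.11 to 0.21 with 1 library left out. In KO 1 and KO 3, 14.6% and 16.8% of the olfactory and vomeronasal genes reached the level of Gzmm. Gzmc and Gzmm were the 2 of 10 genes with every KO library above every control, against 6.7% of all tested genes, and no gene of the set had every KO library below every control, against 9.44% of all tested genes.

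Prf1 encodes perforin, without which granzymes do not reach the cytosol of the target. Its level was 8.24, 2.11 and 1.03 FPKM in control 1, 2 and 3 (252, 82 and 40 reads) and 4.41, 9.88 and 3.35 FPKM in KO 1, 2 and 3 (39, 375 and 26 reads). Control 1 and KO 2 were highest and control 2 and 3 lowest, which was also the order of the T cell markers for these 4 libraries. KO minus control gave a log2 difference of 0.71 (SE 0.65, 95% interval -0.86 to 2.29, limma adjusted p = 0.591). It was 1.34 without control 1, 0.32 without KO 2 and 0.24 without control 3. The level of Prf1 in KO 1 and KO 3 was reached or exceeded by 6.08% and 8.51% of the olfactory and vomeronasal genes. Scaling libraries to the T cell markers gave -0.37, and that scaling moves the median of all tested genes from 0.10 to -0.98. Set against the mean of the T cell markers in the same library, Prf1 lay -3.43, -3.54 and -3.92 log2 units away in control 1, 2 and 3, against -4.10, -3.69 and -4.22 in KO 1, 2 and 3, a narrower range than that of Gzmb (1.18 to -3.95).

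Nkg7, a membrane protein of cytotoxic granules that is needed for efficient degranulation, was among the most abundant genes of the set. It measured 105, 71.7 and 40.3 FPKM in control 1, 2 and 3, against 34.9, 192 and 59.0 FPKM in KO 1, 2 and 3 (109 to 2583 reads). KO 2 stood above all other libraries and KO 1 below all others. The log2 difference was 0.13 (SE 0.67, 95% interval -1.49 to 1.75, limma adjusted p = 0.937), and it was -0.56 without KO 2, -0.23 without control 3 and 0.66 without KO 1. Cst7, or cystatin F, inhibits the cathepsins that activate progranzymes. It measured 96.2, 82.5 and 46.0 FPKM in control 1, 2 and 3, against 49.5, 102 and 46.2 FPKM in KO 1, 2 and 3 (137 to 1473 reads). Control 3, KO 1 and KO 3 were close to each other and below the other 3 libraries. KO minus control gave a log2 difference of -0.21 (SE 0.41, 95% interval -1.21 to 0.78, limma adjusted p = 0.811). It was -0.57 without KO 2, -0.53 without control 3 and -0.01 without KO 3. No olfactory or vomeronasal gene reached the level of Nkg7 or Cst7 in any library.

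The 2 granzyme inhibitors also overlapped between the groups. Serpinb9, the mouse inhibitor of granzyme B, measured 38.6, 13.9 and 15.6 FPKM in control 1, 2 and 3, against 41.4, 23.8 and 18.1 FPKM in KO 1, 2 and 3 (190 to 1597 reads). KO 1, where Gzmb was among the lowest, had the most Serpinb9. The log2 difference was 0.34 (SE 0.48, 95% interval -0.80 to 1.49, limma adjusted p = 0.728). It was 0.02 without KO 1, 0.08 without control 2, 0.16 without control 3, 0.60 without KO 3 and 0.79 without control 1. Serpinb6b, a related serpin of lymphocytes that is reported to inhibit granzyme A, measured 37.5, 8.86 and 7.88 FPKM in control 1, 2 and 3, against 38.3, 43.0 and 17.2 FPKM in KO 1, 2 and 3 (117 to 1427 reads). Only control 1 reached the level of the KO libraries. KO minus control gave a log2 difference of 1.07 (SE 0.65, 95% interval -0.49 to 2.64, limma adjusted p = 0.446). It was 1.75 without control 1 and 0.70 without control 3. The Gzmb transcript was 1.38, 5.81 and 1.71 times the level of Serpinb9 in control 1, 2 and 3, against 0.164, 4.71 and 0.233 times in KO 1, 2 and 3. The Gzmb transcript thus exceeded that of Serpinb9 in the 3 controls and KO 2 and was below it in KO 1 and KO 3. Protein was not measured.

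**Figure D2:**
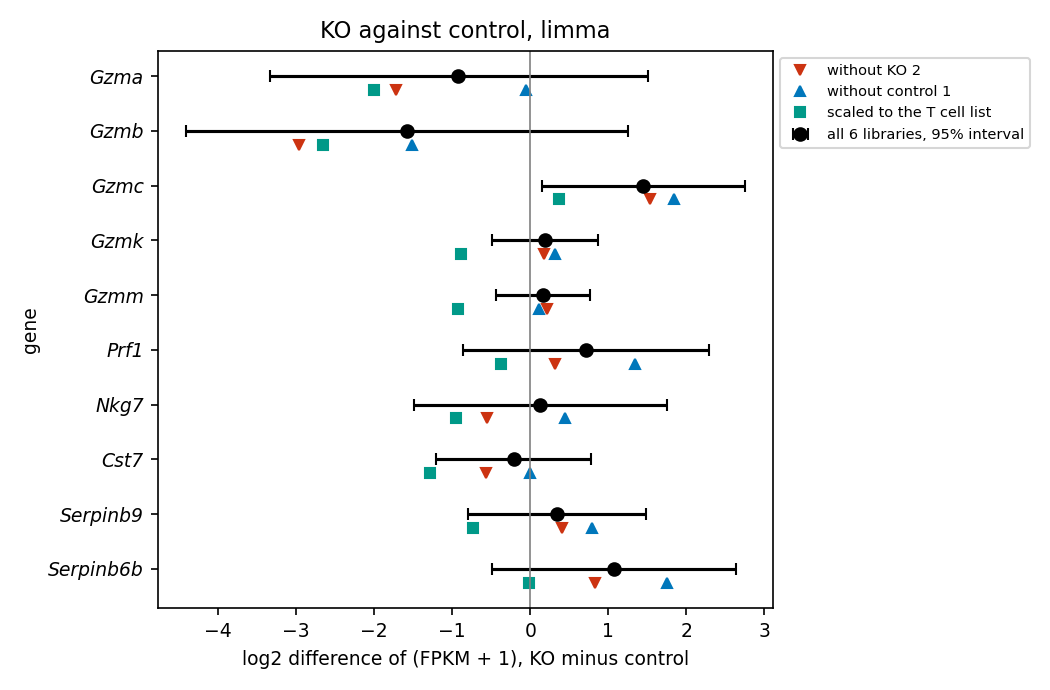
Log2 difference of (FPKM + 1), KO minus control, for each granule gene, with the estimate and 95% limma interval from all 6 libraries in black and the estimates without KO 2, without control 1 and after scaling to the T cell markers as coloured symbols. The interval of Gzmc (0.15 to 2.75) is the only one that leaves out 0, and scaling to the T cell markers moves every gene down alike, which leaves only Gzmc above 0.

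Across the set, the high and the low values gathered in certain libraries of each group. KO 2 was the highest of the 6 libraries for 5 of the 10 genes (Gzmb, Prf1, Nkg7, Cst7 and Serpinb6b), against 16.6% of all tested genes. Control 3 was the lowest for 5 genes (Gzmc, Gzmk, Prf1, Cst7 and Serpinb6b), against 22.8% of all tested genes. Control 1 and KO 2 together were the highest pair for Gzma, Prf1, Nkg7 and Cst7, which is 4 of 10 genes against 14.5% of all tested genes. The mean log2(FPKM + 1) of the 10 genes was 4.25, 3.45 and 2.85 in control 1, 2 and 3, against 3.33, 4.39 and 3.23 in KO 1, 2 and 3. Without control 1, none of the 10 genes passed the limma threshold, where 2.6% of all tested genes did.

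The make-up of the granzyme transcripts set KO 1 and KO 3 apart from the other 4 libraries. Summed over 10 granzymes (the 5 above with Gzmd, Gzme, Gzmf, Gzmg and Gzmn, which lie in the gene cluster of Gzmb and Gzmc), the level was 77.5, 90.1 and 32.1 FPKM in control 1, 2 and 3, against 19.2, 131 and 23.0 FPKM in KO 1, 2 and 3. Gzmb made up 68.7%, 89.9% and 83.3% of this sum in the controls and 85.9% in KO 2, against 35.4% in KO 1 and 18.4% in KO 3. Gzmc took 29.3% and 41.9% in KO 1 and KO 3, and 1.11% to 5.13% in the other 4 libraries. The shares of Gzmk (20.8% and 14.6%, against 2.97% to 7.61%) and Gzmm (8.26% and 5.91%, against 0.956% to 3.80%) were also higher in KO 1 and KO 3, where the sum was small and Gzmb low. Gzma reached 19.4% in control 1 and at most 5.11% elsewhere. KO 1 and KO 3 are also the libraries of low total with reads in receptor genes of sensory neurons, and the part of this in the shares was not tested. KO 2, of the same genotype, had shares of Gzmb and Gzmc within the range of the controls. The ratio of Gzmb to Prf1 was 6.46, 38.3 and 26.0 in control 1, 2 and 3, against 1.54, 11.4 and 1.26 in KO 1, 2 and 3.

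**Figure D3:**
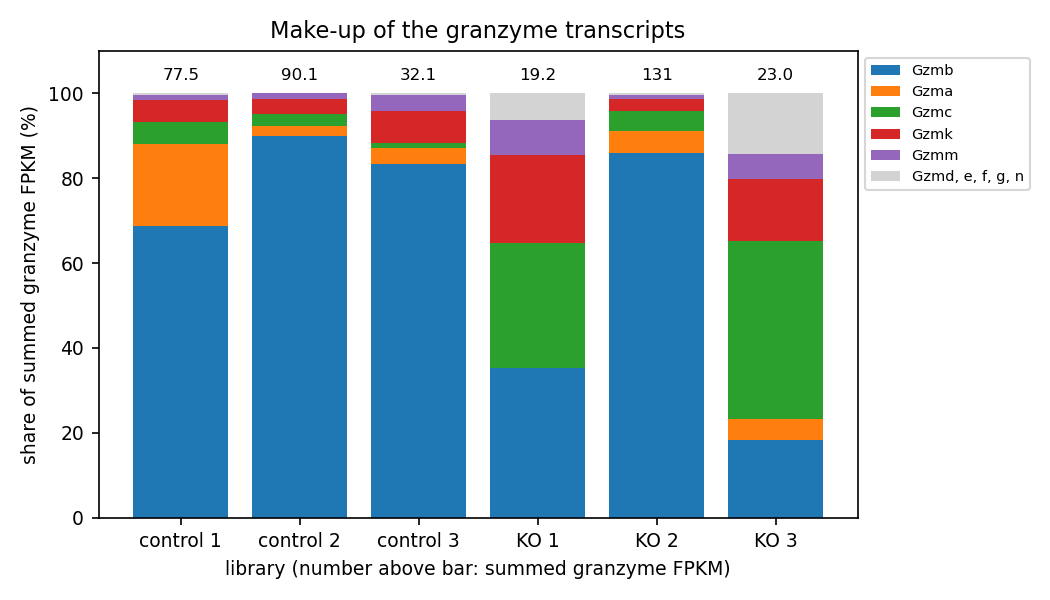
Share of each granzyme in the summed granzyme FPKM of each library (stacked bars, in percent), with that sum in FPKM above each bar. Gzmb makes up 68.7% to 89.9% in the controls and KO 2 and 35.4% and 18.4% in KO 1 and KO 3, the 2 libraries with the highest share of Gzmc (29.3% and 41.9%).

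None of the 5 other granzymes of the cluster passed the filter, and they summed to 0.28, 0 and 0.141 FPKM in control 1, 2 and 3, against 1.22, 0.525 and 3.26 FPKM in KO 1, 2 and 3. The highest of these sums lie in the libraries where the 90th percentile of olfactory and vomeronasal genes was 2.62 FPKM (KO 1) and 2.70 FPKM (KO 3), against 0.051 to 0.232 FPKM elsewhere.

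Genes that load and sort the granule mostly had lower estimates in the KO group, and none passed the test. Of 13 genes for granule processing and sorting, all tested, 0 passed (smallest limma adjusted p 0.417), 12 had lower and 1 higher estimates, and 7 did not overlap, with all KO values under the controls (9.44% of all tested genes), at a median log2 difference of -0.83. M6pr, the mannose 6-phosphate receptor that carries granzymes to lysosomes, measured 95.4 ± 14.3 FPKM in control cells against 60.3 ± 4.07 FPKM in KO cells (SD, n = 3 each). Lamp2, a lysosomal membrane protein, measured 38.8 ± 20.1 and 12.3 ± 2.10 FPKM. Calr, the chaperone calreticulin, which binds perforin, measured 282 ± 49.7 and 160 ± 35.2 FPKM. These genes are also used by other cell types, and the neutrophil, monocyte and basophil markers given further on also had mostly lower estimates. Their part in these values was not tested. The median of this list was -0.55 without control 2 and -0.45 without control 2 and 3.

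Of 16 genes that move, dock and fuse granules, 14 were tested and 0 passed, with 5 higher and 9 lower estimates and a median of -0.42. The median was -0.65 without control 1 and -0.29 without KO 2 or control 3. In 5 of them all KO values lay under the controls, as in 9.44% of all tested genes. The part of the myeloid markers, which mostly had lower estimates too, was not tested here either. Stx11, a syntaxin that is mutated in a familial form of haemophagocytic disease, measured 23.1 ± 11.8 FPKM in control cells against 7.91 ± 1.05 FPKM in KO cells (SD, n = 3 each). Stx7, a syntaxin of late endosomes, measured 21.9 ± 5.73 and 10.1 ± 2.70 FPKM. Rab7, a small GTPase of late endosomes and lysosomes, measured 177 ± 66.1 and 79.7 ± 1.59 FPKM.

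Of 16 matched genes for other inhibitors of granule and lysosomal proteases, 7 passed the low-value filter and 0 passed the test, with 1 higher and 6 lower estimates and a median of -0.15. That median rests on single libraries: it was 0.06 without KO 1, -0.36 without control 1, -0.60 without KO 3 and -0.74 without control 3 or KO 2. Serpinb1a, an inhibitor of neutrophil proteases, measured 6.16, 61.5 and 75.0 FPKM in control 1, 2 and 3, against 4.26 to 5.97 FPKM in the KO libraries, so it was high in the 2 libraries with the most neutrophil transcripts. Cstb, cystatin B, measured 250, 1130 and 518 FPKM in the controls, against 134, 116 and 251 FPKM in KO 1, 2 and 3. Serpinb9f, a relative of Serpinb9, was at 22.0 and 22.8 FPKM in KO 1 and KO 3 and at 0.104 to 1.06 FPKM in the other 4 libraries. Its log2 difference was 2.59 (limma adjusted p = 0.417). KO 1 and KO 3 are the low-total libraries with reads in many olfactory and vomeronasal genes, and the part of this in the Serpinb9f values was not tested.

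Of 15 matched substrates of granzymes, all tested, 0 passed, with 7 higher and 8 lower estimates and a median of -0.02 (-0.17 to 0.09 with 1 library left out). Bid, the apoptosis protein that granzyme B cleaves, measured 17.1 ± 3.81 FPKM in control cells against 9.51 ± 2.05 FPKM in KO cells (SD, n = 3 each). Anp32a, a subunit of the complex that granzyme A attacks, measured 64.9 ± 5.40 and 85.6 ± 10.8 FPKM. Prkdc, the DNA repair kinase, measured 2.80 ± 1.28 and 5.17 ± 1.46 FPKM.

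The other 6 killing effectors, which act outside the granzyme pathway, also had no member past the threshold, with 3 higher and 3 lower estimates and a median of -0.03 (-0.13 to 0.21 with 1 library left out). Tnf, the cytokine that kills through its death receptor, measured 16.6, 26.0 and 15.3 FPKM in control 1, 2 and 3, against 5.53, 11.1 and 4.87 FPKM in KO 1, 2 and 3. Every KO library lay below every control, with a log2 difference of -1.35 (limma adjusted p = 0.417). Ifng, the main macrophage-activating cytokine of CD8+ cells, was at 11.7 and 15.4 FPKM in KO 1 and KO 3 and at 0.473 to 1.70 FPKM in the other 4 libraries, so KO 2 stood with the controls. Its log2 difference was 1.74 (limma adjusted p = 0.421). KO 1 and KO 3 are the low-total libraries, where the 90th percentile of olfactory and vomeronasal genes was 2.62 and 2.70 FPKM. The part of this in the Ifng values was not tested. Tnfsf10, the death ligand TRAIL, measured 3.48, 1.30 and 0.657 FPKM in the controls, against 2.61, 4.29 and 1.90 FPKM in KO 1, 2 and 3.

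Of 21 regulators of the cytotoxic programme, 20 were tested and 0 passed, with 13 higher and 7 lower estimates and a median of 0.26, which was 0.05 under quantile normalization and -0.82 after scaling to the T cell markers. Leaving out control 1 gave 0.61 and leaving out KO 3 gave 0.51, while leaving out KO 2 gave 0.07 and leaving out control 3 gave -0.06. Zeb2, a repressor active in terminal effector cells and in myeloid cells, was at 2.78, 8.17 and 10.2 FPKM in control 1, 2 and 3, against 1.55, 0.727 and 1.89 FPKM in KO 1, 2 and 3. Irf4, which couples receptor signal strength to effector differentiation, measured 22.8 ± 5.45 FPKM in control cells against 10.9 ± 6.15 FPKM in KO cells (SD, n = 3 each). Hif1a, the oxygen-sensing factor that also sustains glycolysis and granzyme expression in cytotoxic cells, measured 37.2 ± 15.6 and 16.6 ± 9.88 FPKM. The T-box factors that bind granzyme and perforin genes were looked at after their values were seen. Eomes measured 23.9, 3.45 and 0.976 FPKM in control 1, 2 and 3, against 7.74, 28.1 and 6.49 FPKM in KO 1, 2 and 3. Tbx21, or T-bet, measured 5.36, 2.19 and 0.401 FPKM, against 0.940, 14.1 and 0.401 FPKM. Both were highest in KO 2 and next highest in control 1, the order seen for Prf1 and Nkg7. In the same list Tcf7, Il2rb and Batf had this order too, as did Zfp683, which was below the low-value filter, and the T cell markers Cd8a and Cd3e. Runx3, Stat5a, Stat5b and Il2ra had the same highest pair, but with control 1 first. Other regulators, such as Id2 and Prdm1, had neither. In either order, control 1 and KO 2 were the highest pair for 14.5% of all tested genes. The part of these factors in the granule gene values was not tested.

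**Figure D4:**
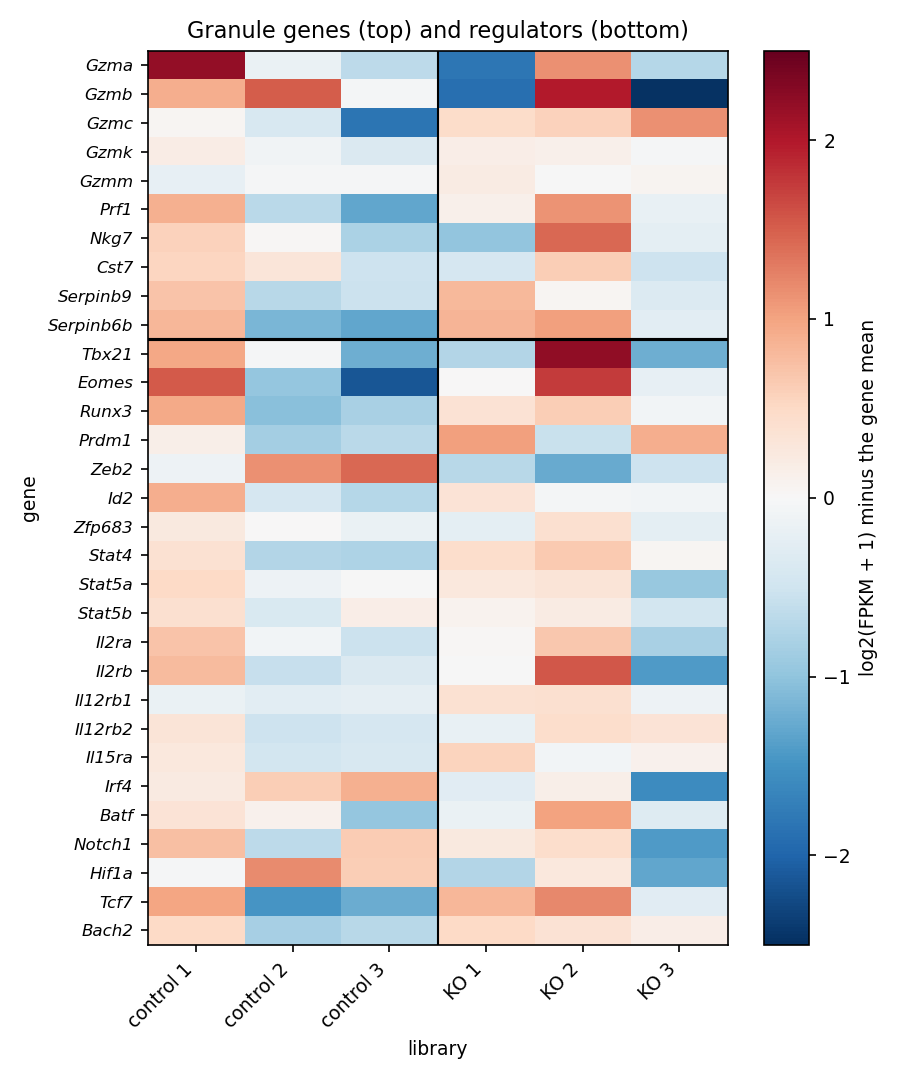
Heat map of log2(FPKM + 1) minus the mean of the gene over the 6 libraries, with the 10 granule genes above the horizontal line and the 21 regulators below it, and libraries in columns. Eomes, Tbx21, Tcf7, Il2rb, Batf and the very low Zfp683, like Prf1 and Nkg7, are highest in KO 2 and next in control 1. Zeb2 is highest in control 2 and control 3.

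For 5 granule genes, the 3 genes with the nearest profile were sought among 10823 tested protein-coding genes, by the root mean square difference of centred log2(FPKM + 1) values over the 6 libraries. The libraries share depth and cell make-up, so these distances describe the libraries only. Profiles were not scaled, so a distance also grows with the spread of the gene itself and cannot be compared between granule genes. For Prf1 the nearest were Tap1, the peptide transporter of antigen presentation (0.14), the kinase Pim2 (0.15) and Unc5cl (0.16). Tap1 measured 87.1, 25.2 and 22.1 FPKM in control 1, 2 and 3, against 56.2, 109 and 44.3 FPKM in KO 1, 2 and 3. For Nkg7 they were the chemokine Cxcl10 (0.20), Rpap3 (0.25) and the galactokinase Galk1 (0.34). For Gzmk, which varied little, they were Sap30bp (0.04), Phf13 (0.06) and Poglut1 (0.06). For Gzma they were Ly6i (0.47), the chemokine Ccl17 (0.54) and Smpdl3b (0.61). For Gzmb, which varied most, they were Acod1, the itaconate-producing enzyme of activated macrophages (0.70), Il1rn, the interleukin-1 receptor antagonist (0.70), and the acute phase gene Saa3 (0.80). Acod1 measured 27.1, 49.3 and 27.9 FPKM in control 1, 2 and 3, against 2.01, 26.9 and 0.508 FPKM in KO 1, 2 and 3, low in the same 2 KO libraries as Gzmb.

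Markers of T cells and of other cell types that express granule genes or could enter a CD8+ preparation are given with them. All 18 T cell markers were tested, all had higher estimates in the KO group, 6 had every KO library above every control (6.7% of all tested genes did), 0 passed, and their median log2 difference was 1.09. Cd8b1, a chain of the CD8 coreceptor, measured 351, 77.8 and 67.7 FPKM in control 1, 2 and 3, against 329, 603 and 342 FPKM in KO 1, 2 and 3, so a marker of the labelled cell type was present in every library. The 4 markers of CD4 T cells summed to 15.7 to 31.3 FPKM in the controls, against 4.83 to 9.42 FPKM in the KO libraries, with Cd4 at 1.16 to 6.34 FPKM.

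Natural killer cells also express Gzma, Gzmb, Prf1 and Nkg7. Their 10 markers, of which 5 were tested, summed to 4.19 to 9.08 FPKM in the controls, against 43.5, 6.34 and 28.2 FPKM in KO 1, 2 and 3, with at most 1 marker at 0 in any library. Ncr1, the receptor NKp46, measured 0.562 to 1.04 FPKM in the controls, against 7.40, 0.752 and 4.75 FPKM in KO 1, 2 and 3. Klra9, a receptor of the Ly49 family, measured 23.5 and 13.5 FPKM in KO 1 and KO 3 and 0.160 to 2.18 FPKM elsewhere. Klra9 alone was the largest part of the sums in KO 1 and KO 3, and not all markers followed these sums. Klrb1c was highest in KO 2 (2.92 FPKM). Klrb1f measured 0, 1.11 and 0.493 FPKM in KO 1, 2 and 3, against 1.02 to 1.84 FPKM in the controls. The libraries with the highest natural killer marker sums, KO 1 and KO 3, had the lowest Gzmb. KO 2, with the highest Gzmb, Prf1 and Nkg7, had a sum within the range of the controls. The part of natural killer cells in the granule gene values was not tested. KO 1 and KO 3 are also the low-total libraries in which 62.2% and 66.5% of olfactory and vomeronasal genes had a read, and the part of this in their natural killer marker sums was not tested.

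Markers of myeloid cells mostly had lower estimates. All 12 tested neutrophil markers had lower estimates in the KO group, with a median of -3.75, and none was at 0 in any library. S100a8, a calcium-binding protein of neutrophils, measured 109, 4500 and 7640 FPKM in control 1, 2 and 3, against 64.9, 20.2 and 170 FPKM in KO 1, 2 and 3. The 12 markers of macrophages and monocytes had 2 higher and 10 lower estimates, with sums of 2080 to 4490 FPKM in the controls, against 917, 330 and 2210 FPKM in KO 1, 2 and 3. Lyz2 made up most of the sum in every library. The mean log2(FPKM + 1) of the list was 4.83, 5.01 and 4.18 in control 1, 2 and 3, against 4.59, 1.94 and 5.75 in KO 1, 2 and 3. C1qa, C1qb, C1qc, Marco and Spic were highest in KO 3, while Adgre1, Cd68 and Csf1r were highest in a control library. Mast cell and basophil markers, which include proteases whose genes neighbour the granzyme cluster, summed to 205, 1930 and 1270 FPKM in the controls, against 72.0 to 251 FPKM in the KO libraries. Mcpt8, the basophil protease of that cluster, measured 64.1, 659 and 383 FPKM in control 1, 2 and 3, against 19.1, 46.9 and 77.1 FPKM in KO 1, 2 and 3. Summed levels of the other lists were 10.8 to 21.9 FPKM in the controls, against 9.16 to 16.8 in the KO libraries for plasmacytoid dendritic cells, 3.99 to 17.7 and 7.79 to 18.2 for conventional dendritic cells, and 31.4 to 269 and 60.7 to 201 for B and plasma cells. Erythroid markers summed to 5.10, 1880 and 863 FPKM in control 1, 2 and 3, against 2.15 to 28.5 FPKM in the KO libraries. No marker of any of these lists passed the limma threshold. The part of these other cells in the granule gene values was not tested.

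**Figure D5:**
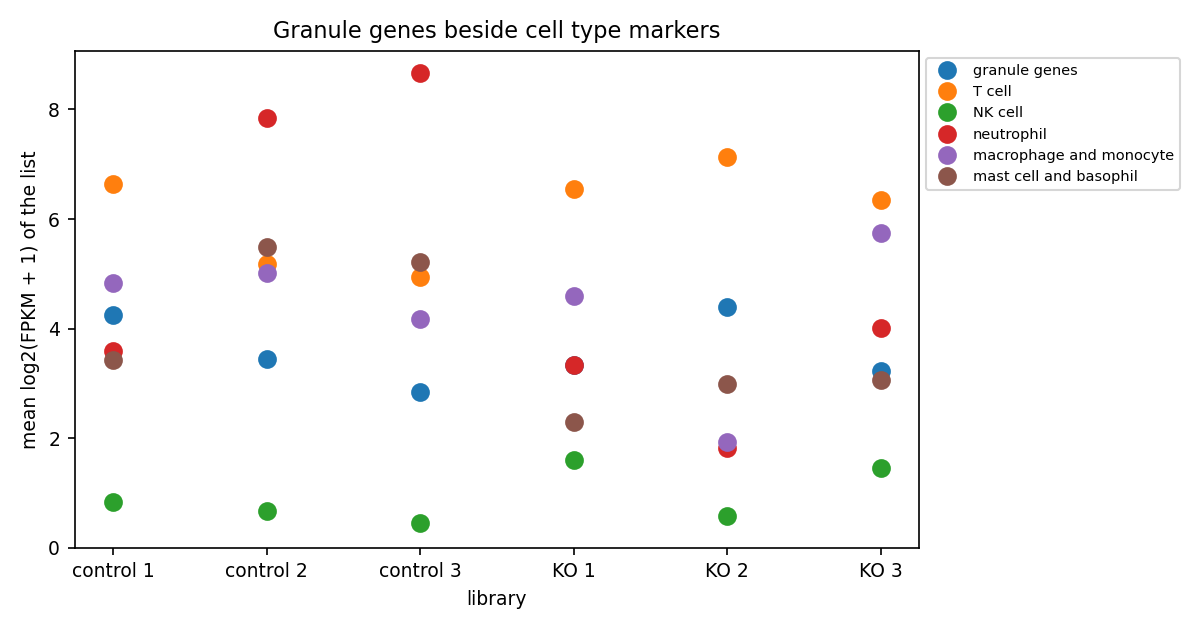
Mean log2(FPKM + 1) of the 10 granule genes and of 5 cell type marker lists in each library. The granule genes are highest in control 1 (4.25) and KO 2 (4.39), where the T cell means are 6.64 and 7.13. KO 1 and KO 3 have T cell means near that of control 1 (6.54 and 6.34) but granule means of 3.33 and 3.23. These lie below control 2 (3.45) and above control 3 (2.85), where the T cell means are 5.18 and 4.94. The neutrophil mean is highest in control 2 (7.85) and control 3 (8.66).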

How the data were processed

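RNA-seq of CD8+ T cells from mouse spleen gave 3 libraries per genotype. Per the submitters' processing notes, the tools were HTSeq 0.6.0, Bowtie2 2.2.3 and HISAT2 version 2 on build mm8, in no stated role. For strand setting and annotation, nothing was given in the sources used here. The authors deposited FPKM per gene and library, a unit read from the values. Multiplied by exon length (GENCODE M21, 35358 of 35458 identifiers matched), 92.1% to 93.4% of low values came out as whole reads within 0.02 read, which gave the totals and the read numbers. For Gzma, Gzmb and Gzmc the length giving whole reads was 878, 1418 and 934 bases, against 1006, 1436 and 894 bases of summed exons, and the former was used. Poisson intervals (95%) and floors of 3 reads cover counting error only. No 2 libraries of a group agreed within sampling noise.

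In limma 3.58.1 under R 4.3.3, log2(FPKM + 1) was fitted on group alone with a variance trend, and p-values were adjusted by Benjamini-Hochberg with a threshold of 0.05. The plan was to use a count model only if counts were given. Tables were handled with Python 3.11.15. The procedure was tested on simulated data, drawn at the implied totals from a common mean profile with known changes. The differences in cell make-up and the reads in receptor genes were not simulated. The simulation therefore cannot show how the fit behaves under them.

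The granule genes and the gene lists were chosen with earlier results of these data known. Named genes were the 10 granule genes, Slc2a10, the 3 tested genes with the smallest p of each pathway list, the 2 most abundant of each marker list and the 3 nearest profiles of 5 granule genes. Not all of them are reported. Alternatives were quantile normalization, scaling to the T cell markers, dropping the low-value filter, a pseudocount of 0.1, a replicate block, protein-coding genes only, limma-voom, and fits without single or paired libraries.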

Additional observations from a re-analysis of the deposited data

How the results depend on the processing

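The number of genes past the limma threshold was 0 with all libraries and ranged from 0 to 1821 when 1 library was left out, with 363 genes (146 higher and 217 lower in KO) without control 1 and 1821 genes (1687 higher and 134 lower) without KO 2. Among the granule genes the number ranged from 0 to 1, the 1 being Gzmb without KO 2. Same-numbered libraries deviated together with r of 0.11, 0.02 and 0.02, so the numbers were not taken to pair them, and with a replicate block 0 genes and 0 granule genes passed. The median log2 difference of all genes moved from 0.10 to -0.12 under quantile normalization and to -0.98 when libraries were scaled to the T cell markers. The log2 difference turned under quantile normalization for Gzmk (-0.16) and Nkg7 (-0.02), and under T cell scaling for Gzmk (-0.89), Gzmm (-0.92), Prf1 (-0.37), Nkg7 (-0.95), Serpinb9 (-0.74) and Serpinb6b (-0.01), a scaling that shifts all genes alike, so that relative to the all-gene median none of these 6 turned. Nkg7 ranged from -0.56 to 0.66 when 1 library was left out, with -0.23 without control 3 and -0.56 without KO 2. Without control 2 and 3 the values were -0.08 for Gzmk, -0.54 for Prf1, -0.50 for Nkg7, -0.54 for Serpinb9 and -0.29 for Serpinb6b. Without KO 1 and 3 they were 0.68 for Gzma, 1.19 for Gzmb and 0.50 for Cst7. The cause of these turns was not tested. Gzmc kept its direction in all 15 alternatives, and Gzmm in all but T cell scaling and quantile normalization, where it was at 0 to 2 decimals. For both genes every KO library lay above every control. Only quantile normalization, T cell scaling and limma-voom could therefore have turned the direction, and the other settings could not test it. At the totals of KO 1 and KO 3, 3 reads in a gene of 1 kb are 0.877 and 0.998 FPKM, so Gzma and Gzmm are near the limit there.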
